A study of Homo sapiens with 6 samples.

Results

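The genes described here lie along the long arm of chromosome 18 (18q), from FHOD3 to ADNP2, and include 3 genes of the SMAD family, SMAD2, SMAD4 and SMAD7. The set was given as 60 gene symbols, and it was chosen after lower values of SMAD2 and of genes near it had been seen on these same arrays. The fold changes that follow therefore describe the contrast by which the genes were chosen. No test of the set is given, and nothing is read from the p values of its genes. Of the 60 genes, 45 had a transcript cluster with their symbol, and each of the 45 had a single one, out of 53617 transcript clusters in all. The other 15 (CELF4, PIK3C3, SLC14A1, HAUS1, C18orf25, RNF165, ST8SIA5, PIAS2, C18orf32, LIPG, ME2, ATP8B1, NEDD4L, LMAN1 and PIGN) had no transcript cluster with that symbol here and were not analysed.

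The study compared SUM159, a triple negative breast cancer cell line, transduced with a lentivirus for mature miR-1287-5p with the same line carrying an empty control vector. Both viruses encode GFP, and both populations were kept under puromycin for selection, so the control cells share the vector backbone, the marker and the drug. Each group held 3 biological replicates, and the RNA of each was put on 1 Affymetrix Human Gene 2.0 ST array, 6 arrays in all. Whether replicates of a group came from separate transductions is not given in the sources used here, so their spread may be that of cultures of 1 selected population. The mesenchymal markers AXL, CD44, MSN and VIM had mean log2 signals of 9.15 to 12.2, while ESR1 (4.22), PGR (3.63) and FOXA1 (4.42) lay near or below 4.37, the median of all transcript clusters. GATA3, the other luminal marker, had a mean of 6.63, and PECAM1 of endothelium a mean of 3.37. CAV1 and PTPRC had no transcript cluster with their symbol here.

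SMAD proteins carry the signal of the TGF-beta family from the cell surface to the nucleus. SMAD2 is phosphorylated by the TGF-beta and activin receptors, SMAD4 is the partner that phosphorylated SMADs share, and SMAD7 is an inhibitor that TGF-beta itself induces. In breast cancer cells this pathway is known for growth arrest early in the disease and for invasion and mesenchymal change later. A miRNA pairs with messenger RNAs mainly through its seed, bases 2 to 8 from the 5′ end, and lowers their level or their translation. The neighbours of the SMAD genes on 18q have other functions: actin and microtubule proteins, autophagy and Golgi factors, RNA-binding proteins, enzymes of metabolism, and readers of DNA methylation.

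The sequence of the overexpressed miRNA is shown because it is the agent that distinguishes the groups. It is written 5′ to 3′ as RefSeq gives it on GRCh38.p14, with the seed in capitals.
hsa-miR-1287-5p: uGCUGGAUcagugguucgaguc
The mature miRNA spans chr10:98395271-98395292 on the minus strand, inside the gene span of PYROXD2, and so lies on another chromosome than the genes described. A transcript with a full match to the seed and an adenine opposite the first base would carry AUCCAGCA. The transcripts' untranslated regions were not analysed here, so no statement is made on which of the genes carry it. The level of the miRNA itself was not analysed here.

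Of the 45 genes, 39 had a lower mean log2 signal in the overexpressing cells than in the control cells, and the median log2 fold change (overexpression minus control) was −0.25. The quartiles were −0.47 and −0.095, and the values ran from −0.71 for PSTPIP2 to 0.19 for ZBTB7C. Over all transcript clusters 44.5% lay below 0, with a median of 0.029, and over all 14884 genes with a symbol 48.0% lay below 0, with a median of 0.011. The 3 arrays of one group all lay below the 3 of the other, with the overexpressing cells lower, for 15 of the 45 genes, and for 0 the other way round. Over all transcript clusters such groups were seen for 4.33% in the lower and 6.88% in the higher direction. Since the genes were chosen on this contrast, nothing is read from the difference.

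At an adjusted p under 0.05 (limma, Benjamini-Hochberg over all transcript clusters) 0 of the 45 genes were called, and the lowest adjusted p among them was 0.733. Over the whole table this threshold called 2 transcript clusters, 0.00373%. At an unadjusted p under 0.05 in the lower direction there were 13 of the 45 genes, against 2.44% of all transcript clusters, and in the higher direction 0 of the 45, against 2.96%. In either direction the 13 stood against 5.4% of all transcript clusters. At least 1.5-fold lower means were found for 3 genes, PSTPIP2, MALT1 and SMAD2, of which PSTPIP2 and SMAD2 also had an unadjusted p under 0.05, against 1.01% of all transcript clusters. Nothing is read from these counts, since the genes were chosen on this contrast. With 6 arrays the precision of each value is limited, and no two-sided exact permutation p could go under 0.1.

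**Figure D1:**
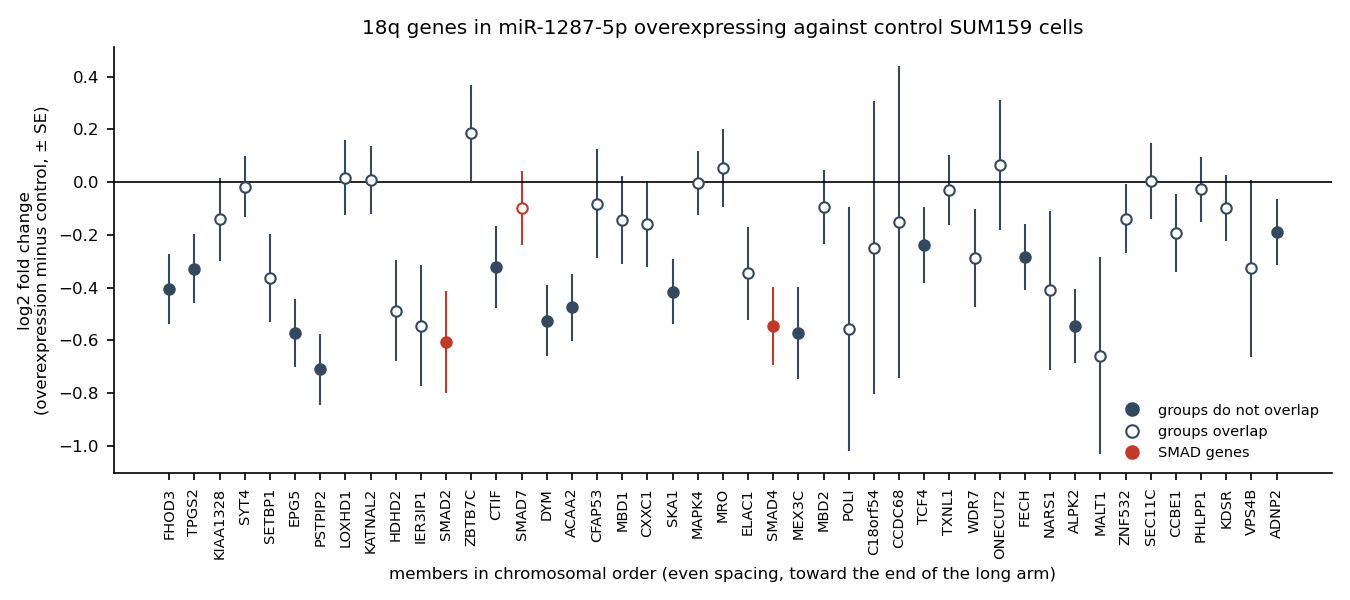
Log2 fold change (overexpression minus control) of the 45 measured genes, evenly spaced in chromosomal order, with bars for the standard error of the limma fit (n = 3 arrays per group); filled points mark genes whose groups do not overlap and red points the SMAD genes. Most points lie below 0, the lowest being PSTPIP2 at −0.71, and long bars mark POLI, C18orf54, CCDC68, NARS1, MALT1 and VPS4B.

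SMAD2 (chr18:47808957-47930872, GRCh38.p14) had log2 signals of 8.82, 9.36 and 8.96 on the control arrays and of 8.71, 8.34 and 8.26 on the overexpression arrays. All 3 overexpression arrays lay below all 3 control arrays, with 0.11 between overexpression replicate 1 and control replicate 1, the nearest to each other. The means were 9.04 ± 0.28 and 8.44 ± 0.24 (SD, n = 3), which gave a log2 fold change of −0.61 (standard error 0.19), the third lowest of the 45. SMAD2 is in the list of lower genes that the study drew from these arrays, as is PSTPIP2, so their direction is not independent evidence.

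SMAD4 (chr18:51030213-51085042), the shared partner SMAD, had signals of 9.53, 9.75 and 9.56 in the control cells against 9.27, 9.02 and 8.92 in the overexpressing cells. Again the groups did not overlap, control replicate 2 was the highest array and overexpression replicate 3 the lowest. The means were 9.61 ± 0.12 and 9.07 ± 0.18 (SD, n = 3), and the log2 fold change was −0.55 (standard error 0.15). SMAD7 (chr18:48919853-48950965), the inhibitory SMAD, lies between the other SMAD genes and had signals of 6.74, 6.47 and 6.41 in the control against 6.41, 6.40 and 6.52 in the overexpressing cells. Here the groups overlapped, with overexpression replicate 3 above control replicates 2 and 3, and the log2 fold change was −0.098 (standard error 0.14). The sign of the SMAD7 value rested on control replicate 1, since without that array it was 0.0017.

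Within an array the difference between SMAD2 and SMAD4 moved little, by −0.061 in the overexpressing cells relative to the control, with SDs of 0.16 and 0.061. SMAD2 minus SMAD7 moved by −0.51 (SDs 0.40 and 0.28) and SMAD4 minus SMAD7 by −0.45 (SDs 0.25 and 0.23). The groups overlapped in all 3 of these differences, so these arrays did not separate SMAD7 from the other SMAD genes.

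**Figure D2:**
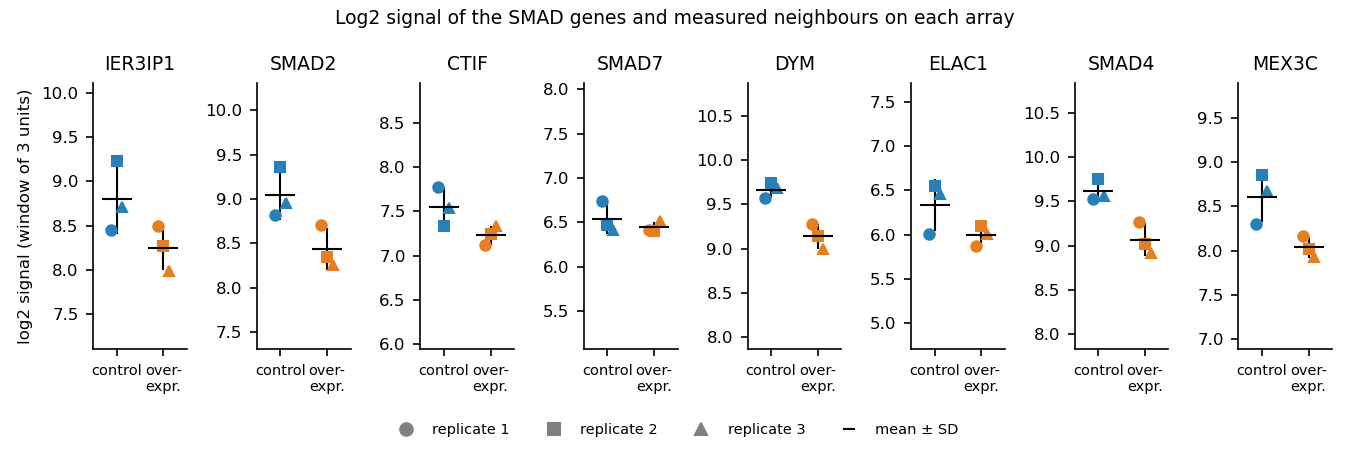
Log2 signal on each array for SMAD2, SMAD7, SMAD4 and 5 measured neighbours from the set, in chromosomal order, with blue points for control, orange points for overexpression, marker shapes for the replicate, and lines for the mean and SD (n = 3); each panel spans 3 log2 units. The groups do not overlap in SMAD2, SMAD4, CTIF, DYM and MEX3C, and overlap in IER3IP1, ELAC1 and SMAD7. Neighbours not drawn are HDHD2 (log2 fold change −0.49), ZBTB7C (0.19), ACAA2 (−0.47), MRO (0.054) and MBD2 (−0.095).

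The nearest measured genes of the set on each side of a SMAD gene have other functions and were set beside it. Measured genes outside the set that lie between them, such as RPL17 between DYM and ACAA2, were passed over. On the side of SMAD2 toward the centromere lie IER3IP1, a protein of the endoplasmic reticulum, and HDHD2, named for its hydrolase domain. IER3IP1 had signals of 8.46, 9.22 and 8.71 in the control and 8.49, 8.27 and 7.99 in the overexpressing cells, a log2 fold change of −0.55 (standard error 0.23). HDHD2 had 7.63, 8.20 and 7.999 against 7.71, 7.36 and 7.30, a log2 fold change of −0.49 (standard error 0.19). In both, the groups overlapped only through control replicate 1 and overexpression replicate 1, as the same arrays came nearest to each other in SMAD2.

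On the other side of SMAD2 lie ZBTB7C, a zinc finger transcription factor, and CTIF, a translation factor that works with the nuclear cap-binding complex. ZBTB7C was dim, at 3.10, 3.12 and 2.83 in the control and 3.04, 3.04 and 3.53 in the overexpressing cells, and at 0.19 (standard error 0.18) it had the highest log2 fold change of the 45. Its signal lay below the median of all transcript clusters on every array. CTIF had 7.78, 7.34 and 7.54 against 7.12, 7.24 and 7.33, with groups that came within 0.010 of each other without overlapping, and a log2 fold change of −0.32 (standard error 0.16). Over these 4 neighbours of SMAD2 the median was −0.41, the range −0.55 to 0.19, and none lay lower than SMAD2 itself.

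CTIF and ZBTB7C also precede SMAD7, and DYM and ACAA2 follow it. DYM, whose product dymeclin sits at the Golgi, had 9.57, 9.74 and 9.68 in the control and 9.27, 9.14 and 8.998 in the overexpressing cells, groups 0.30 apart at their nearest, and its log2 fold change was −0.53 (standard error 0.13). ACAA2, the mitochondrial thiolase that completes each round of fatty acid beta-oxidation, had 9.31, 9.25 and 9.47 against 8.81, 8.88 and 8.91 and a log2 fold change of −0.47 (standard error 0.13). The median over the 4 neighbours of SMAD7 was −0.40, and 3 of the 4 lay lower than SMAD7.

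Around SMAD4 lie MRO and ELAC1 on one side and MEX3C and MBD2 on the other. MRO was dim, at 4.97, 4.67 and 4.99 against 4.95, 4.79 and 5.05, so that its log2 fold change was 0.054 (standard error 0.15). ELAC1, an endonuclease of tRNA processing, had 6.005, 6.55 and 6.46 against 5.87, 6.10 and 6.01, where control replicate 1 fell among the overexpression arrays, and a log2 fold change of −0.35 (standard error 0.18). MEX3C, an RNA-binding ubiquitin ligase, had 8.30, 8.86 and 8.67 against 8.17, 8.02 and 7.93, groups that did not overlap, and a log2 fold change of −0.57 (standard error 0.18).

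MBD2, a reader of methylated CpG sites, had 10.03, 10.36 and 10.26 in the control and 10.23, 10.06 and 10.08 in the overexpressing cells, overlapping groups with a log2 fold change of −0.095 (standard error 0.14). The median over the 4 neighbours of SMAD4 was −0.22, and MEX3C alone lay lower than SMAD4. With up to 5 measured genes of the set on each side, the medians beside SMAD2, SMAD7 and SMAD4 were −0.47, −0.32 and −0.20. SMAD2, SMAD4 and SMAD7 held the 3rd, 8th and 33rd places from the lowest among the 45, and the 42 genes that are not SMADs had a median of −0.24, with 36 below 0.

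The actin-linked genes PSTPIP2 and FHOD3 were both lower without overlap. PSTPIP2, an F-BAR protein that binds actin and is best known in macrophages, had 6.10, 6.13 and 5.85 in the control and 5.37, 5.25 and 5.32 in the overexpressing cells. The groups were 0.49 apart at their nearest, the means were 6.03 ± 0.15 and 5.31 ± 0.056 (SD, n = 3), and the log2 fold change was −0.71 (standard error 0.13), the lowest of the set. FHOD3, a formin that builds actin filaments in heart muscle, had 6.63, 6.85 and 6.84 against 6.42, 6.26 and 6.42, a difference of −0.41 (standard error 0.13).

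Autophagy and membrane traffic counted 7 genes, of which 6 lay below 0, with a median of −0.33. EPG5, the tether that lets autophagosomes fuse with lysosomes, had 8.36, 8.50 and 8.32 in the control and 7.89, 7.85 and 7.72 in the overexpressing cells. Its groups were separated by more than the range within either, and its log2 fold change was −0.57 (standard error 0.13). DYM and IER3IP1 were given above. VPS4B, the ATPase that takes ESCRT-III filaments apart, had −0.33 and WDR7, which works with the vacuolar proton pump, −0.29, both with overlapping groups. SEC11C, a catalytic subunit of the signal peptidase, had 0.0040, and SYT4, a vesicle protein of neurons with a mean signal of only 3.22, had −0.018.

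All 4 genes of RNA processing and translation lay below 0, with a median of −0.38: MEX3C, CTIF, ELAC1, and NARS1 at −0.41, the asparaginyl-tRNA synthetase of the cytosol. The 3 metabolic enzymes had a median of −0.28. Beside ACAA2, FECH, the ferrochelatase that completes haem synthesis, had 8.12, 8.01 and 8.09 in the control and 7.89, 7.68 and 7.79 in the overexpressing cells. These groups did not overlap, and the log2 fold change was −0.28 (standard error 0.13). KDSR, a reductase of sphingolipid synthesis, had −0.099 with overlapping groups.

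Of the 4 signalling genes, ALPK2, an alpha-kinase, was the one whose groups did not overlap. It was dim, with 4.70, 5.00 and 4.84 in the control and 4.41, 4.31 and 4.19 in the overexpressing cells, close to the median of all transcript clusters, and differed by −0.55 (standard error 0.14). MALT1, the paracaspase of NF-kappaB signalling, had −0.66 but a standard error of 0.37. PHLPP1, a phosphatase that acts on AKT, had −0.027 with a narrow spread at a mean signal of 8.09, and MAPK4, an atypical MAP kinase, had −0.0026 at a mean signal of 3.96.

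The 5 genes of the spindle, microtubules and cilia had a median of −0.15. SKA1, which couples kinetochores to spindle microtubules, had −0.42 and TPGS2, a subunit of the tubulin polyglutamylase, −0.33, both without overlap between the groups. CCDC68, a protein of the centriole, had −0.15 with a standard error of 0.59, CFAP53 of the cilium −0.082, and KATNAL2, of the katanin family, 0.0090.

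Chromatin and transcription was the largest group, with 9 genes of which 7 lay below 0 and a median of −0.14. TCF4, a basic helix-loop-helix factor, had 7.35, 7.51 and 7.33 in the control and 7.30, 7.22 and 6.96 in the overexpressing cells. The highest overexpression array came within 0.029 of the lowest control array, so that the groups stood apart by less than their own spread, and the log2 fold change was −0.24 (standard error 0.14). ADNP2, a zinc finger homeobox protein, had 7.17, 7.36 and 7.28 against 7.16, 7.08 and 7.01, with only 0.011 between the groups and a log2 fold change of −0.19 (standard error 0.13). SETBP1, which binds the protein SET, had −0.36.

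The readers of CpG sites had smaller values with overlapping groups. MBD1 had a log2 fold change of −0.14 and CXXC1, the CpG-binding subunit of a histone H3 methyltransferase complex, −0.16, and MBD2 was near 0 as given above. ZNF532, a zinc finger protein, had −0.14 and ONECUT2, a cut-homeobox factor, 0.064. Among the genes without a shared role, C18orf54 had −0.25, KIAA1328 −0.14, TXNL1 (thioredoxin-like) −0.031 and LOXHD1, known from hair cells of the ear, 0.017. CCBE1, a secreted factor of lymphatic growth, had −0.19, and POLI, a DNA polymerase that copies past lesions, −0.56 with a standard error of 0.46.

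The genes differed in how their control arrays agreed. In 6 of the 45, POLI, C18orf54, CCDC68, NARS1, MALT1 and VPS4B, the control arrays spanned more than 1 log2 unit, as they did in 9.16% of all transcript clusters. CCDC68 had 4.46, 6.96 and 6.28 in the control and 6.22, 5.64 and 5.39 in the overexpressing cells, and C18orf54 had 5.56, 7.95 and 7.32 against 6.98, 6.73 and 6.38. In both, control replicate 1 was the lowest and control replicate 2 the highest of all 6 arrays, with every overexpression array between them.

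POLI and MALT1 differed from these in that overexpression replicate 3, not control replicate 1, was the lowest array. POLI had 5.73, 7.67 and 6.68 in the control and 6.54, 6.14 and 5.72 in the overexpressing cells. MALT1 had 6.75, 8.25 and 7.82 against 7.30, 6.83 and 6.71. In both, control replicate 1 lay just above overexpression replicate 3 and below the other 4 arrays. VPS4B had 7.83, 9.13 and 8.58 against 8.55, 8.12 and 7.88, and NARS1 had 10.04, 11.24 and 10.82 against 10.55, 10.23 and 10.09, both with control replicate 1 as the lowest array and control replicate 2 as the highest. Without one or another of the 6 arrays, the log2 fold change of CCDC68 ranged from −0.87 to 0.38 and that of C18orf54 from −0.94 to 0.25.

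**Figure D3:**
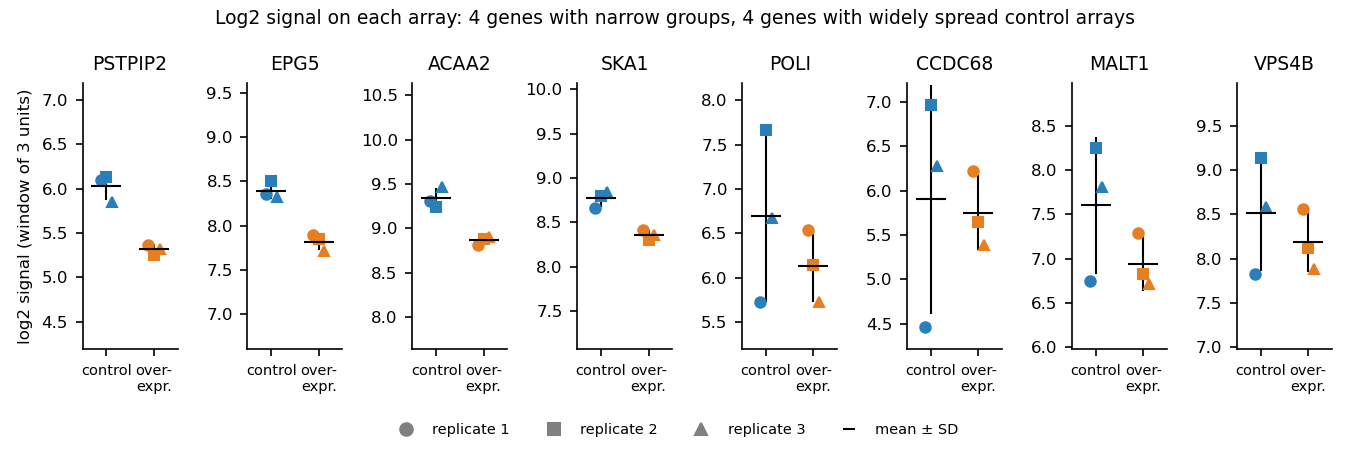
Log2 signal on each array for 4 genes with narrow groups (PSTPIP2, EPG5, ACAA2, SKA1) and 4 with widely spread control arrays (POLI, CCDC68, MALT1, VPS4B), with blue points for control, orange for overexpression, marker shapes for the replicate and lines for the mean and SD (n = 3), each panel spanning 3 log2 units. In the first 4 panels the groups stand apart, and in the last 4 control replicate 1 lies far below control replicate 2, for CCDC68 at 4.46 against 6.96.

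This order of the arrays was not particular to 18q. The first principal component of the 26808 transcript clusters brighter than the median held 55.7% of the variance among the arrays and placed control replicates 1 to 3 at −41.5, 60.6 and 23.4 and overexpression replicates 1 to 3 at 8.10, −14.6 and −36.0. The groups overlapped on it, and control replicate 1 lay beside overexpression replicate 3. Across the 6 arrays the signal of 9 of the 45 genes followed this component with a Pearson correlation above 0.9, namely MBD2, POLI, C18orf54, CCDC68, WDR7, NARS1, MALT1, ZNF532 and VPS4B, given as a description since all points share the arrays. C18orf54, CCDC68, NARS1 and VPS4B had exactly its array order. The share of all transcript clusters with such a correlation is not given here, so whether the 18q genes followed the component more than others cannot be told.

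With the component as a covariate, the median of the 45 genes was −0.13 instead of −0.25, and 38 lay below 0. PSTPIP2 had −0.71 and EPG5 −0.53, SMAD4 had −0.46, SMAD2 −0.44 and SMAD7 −0.18. In contrast POLI had −0.035, VPS4B 0.044, C18orf54 0.38 and CCDC68 0.53. Any effect of the miRNA that runs along the component is removed with it, and the part of the component in the lower values was not tested.

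The values also differed between dimmer and brighter genes, though not with signal among the brightest. Within the 27 genes above a log2 signal of 7, the Spearman correlation of log2 fold change with mean signal was 0.020. The 4 genes below the median signal of all transcript clusters (LOXHD1, MAPK4, SYT4 and ZBTB7C) had a median log2 fold change of 0.0074. The 14 genes from there up to a log2 signal of 7 had a median of −0.20, with 11 below 0. The 27 genes above 7 had a median of −0.32, with 26 below 0 and 12 whose groups did not overlap, SEC11C being the exception at 0.0040. Among genes of other chromosomes above 7, 4398 in number, 50.4% lay below 0, the median was −0.0029, and 7.07% had groups that did not overlap in the lower direction.

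**Figure D4:**
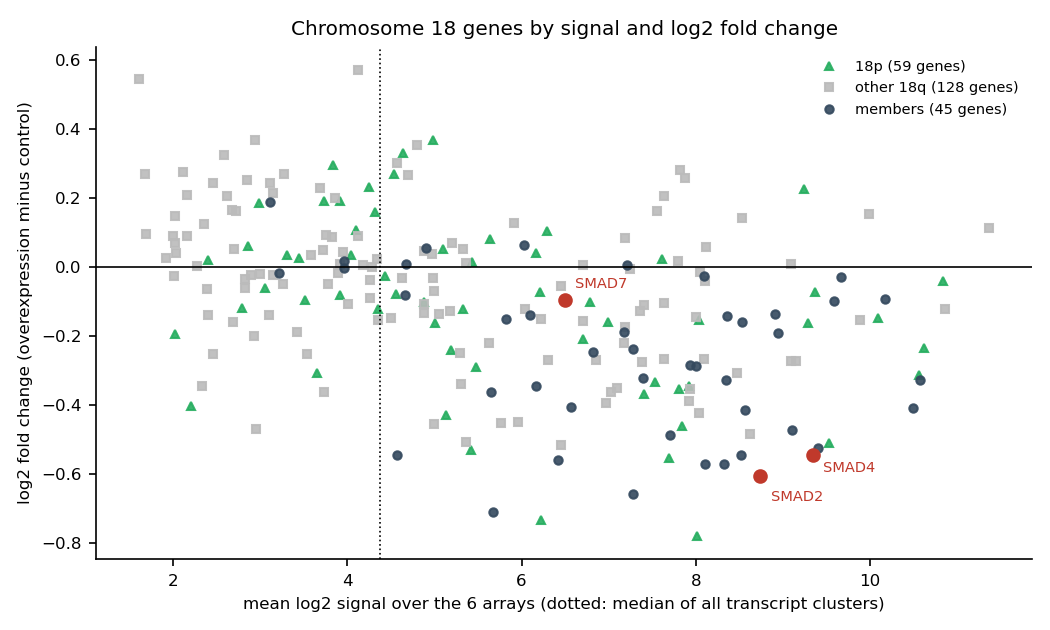
Log2 fold change (overexpression minus control) against mean log2 signal over the 6 arrays for chromosome 18 genes with a symbol: 45 members of the set as dark circles (SMAD genes in red), 59 genes of the short arm as green triangles and 128 other genes of the long arm as grey squares; the dotted line marks the median signal of all transcript clusters, 4.37. Dim genes scatter around 0, and above a signal of 7 most genes of the set and of the short arm lie below 0.

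Along the arm, the median was lower from FHOD3 to MEX3C, the stretch that holds all 3 SMAD genes, than beyond it, while the share of genes below 0 was not larger. From FHOD3 to MEX3C 22 of 26 genes lay below 0, with a median of −0.34 and 11 without overlap, and of the 13 with a signal above 7 all 13 lay below 0, with a median of −0.49 and 9 without overlap. From MBD2 to ADNP2, beyond a gap of 2.95 Mb, 17 of 19 lay below 0, with a median of −0.19 and 4 without overlap, and the 14 above 7 had the same median of −0.19. With the component of the arrays as a covariate the medians of the brighter genes were −0.42 in the first stretch and −0.078 in the other. Groups without overlap in the lower direction were seen for 4.33% of all transcript clusters and for 7.35% of all genes with a symbol above 7. The genes were chosen on this contrast, so nothing is read from the counts in either stretch. These stretches were divided after the values were seen, and the difference between them was not tested.

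Lower values were not confined to the named genes. On the short arm (18p), 37 of 59 genes lay below 0, with a median of −0.097, and of the 17 with a signal above 7, 15 did, with a median of −0.31, close to the −0.32 of the named genes. The lowest there were THOC1, of the mRNA export complex, at −0.78 (standard error 0.58) and METTL4, a methyltransferase, at −0.74 (standard error 0.43), both with overlapping groups. THOC1 had 7.12, 9.45 and 8.64 in the control and 8.25, 7.56 and 7.06 in the overexpressing cells, the same array order as POLI and MALT1. With the first principal component as a covariate, the median of the short arm genes at any signal was −0.035, and that of the 45 named genes −0.13. These sets were not matched on signal, since 17 of 59 short arm genes lay above 7 against 27 of 45 named genes. The difference between these 2 medians is therefore not read. Of the 17 short arm genes above 7, 2 had groups that did not overlap in the lower direction, against 12 of the 27 named genes and 7.35% of all genes with a symbol above 7. The difference from the named genes was not tested, since they were chosen on it.

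Of the other genes of the long arm, 71 of 128 lay below 0, with a median of −0.026. Above a signal of 7 there were 34, with 23 below 0 and a median of −0.13. Those between the centromere and FHOD3 had a median of −0.16 above 7 (17 genes), and those beyond VPS4B a median of −0.017 (14 genes, 7 below 0). Inside the span from FHOD3 to VPS4B, 27.1 Mb, only 3 genes above 7 were not among the named ones, and all 3 lay below 0: RPL17 at −0.27, RELCH at −0.17 and SCARNA17 at −0.12. Among 23 chromosomes, counting genes above 7, chromosome 18 had the lowest median, −0.23 over 78 genes (of which 27 were the named ones), followed by chromosome 3 at −0.16, and chromosome 19 had the highest, 0.15 over 317 genes. Those 27 were chosen after lower values had been seen on these arrays, so nothing is read from the place of chromosome 18.

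By array, the 27 named genes above 7 lay at median deviations from their own 6-array means of −0.0052, 0.19 and 0.19 in control replicates 1 to 3 and of −0.016, −0.22 and −0.20 in overexpression replicates 1 to 3. The medians of control replicate 1 and overexpression replicate 1 were nearly level, but over genes that differed between these arrays in both directions: ACAA2 had 9.31 and 8.81 on them, NARS1 10.04 and 10.55. The short arm genes had −0.16, 0.34 and 0.15 against 0.034, −0.17 and −0.29, an order in which control replicate 1 is nearer to the overexpression arrays. Genes of other chromosomes stayed between −0.074 and 0.032. Control replicate 2 was the highest of the 6 arrays for 26 of the 45 genes and overexpression replicate 3 the lowest for 18. The shares over all transcript clusters are not given here, and the genes were chosen on this contrast, so nothing is read from these counts.

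**Figure D5:**
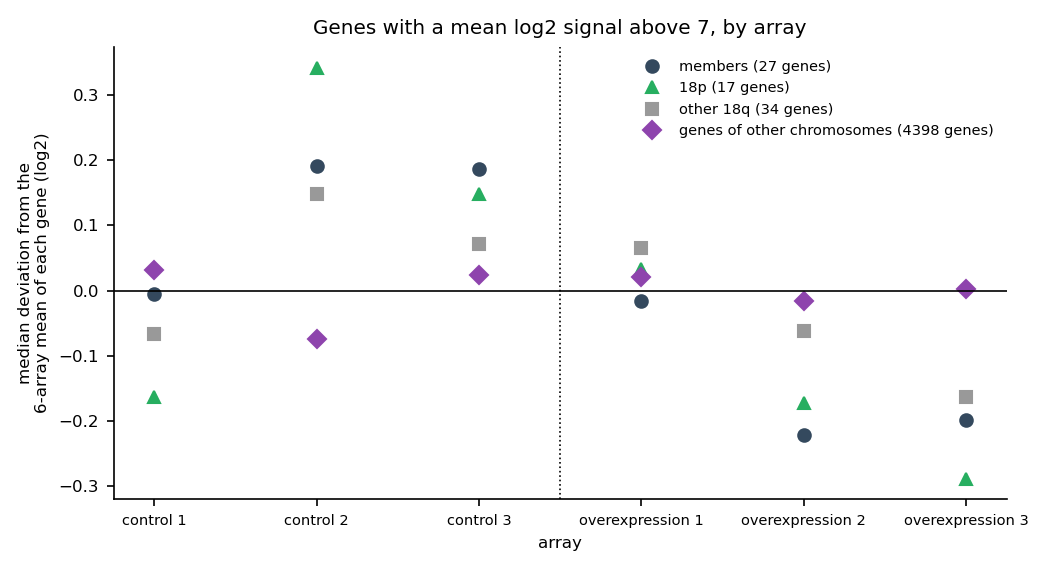
Median deviation of the log2 signal from each gene's 6-array mean, by array, for genes with a mean log2 signal above 7: the named 18q genes (27), the short arm (17), other long arm genes (34) and genes of other chromosomes (4398). The named genes lie at 0.19 on control replicates 2 and 3 and at −0.22 and −0.20 on overexpression replicates 2 and 3, while the replicates numbered 1 of both groups lie close to 0.

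Gene length and promoter composition, which the choice of genes did not use, went with the fold change elsewhere in the genome. Among genes of other chromosomes above 7, divided into 4 equal bins by gene span, the median log2 fold change was 0.12 for the shortest and 0.030, −0.075 and −0.15 for the longer bins. The named genes above 7 had medians of −0.16 (1 gene), −0.41 (6), −0.33 (9) and −0.29 (11) in the same bins, lower than the other chromosomes in each and without a steady order. By the GC content of the RefSeq promoter window around the gene start, the other chromosomes ran from −0.058 in the lowest of 4 bins to 0.048 in the highest, and the 22 named genes above 7 with a promoter sequence had −0.24, −0.37, −0.12 and −0.33. Because the named genes were chosen after lower values had been seen, nothing is read from their place below the other chromosomes. The part of gene length and base composition in the lower values was not tested.

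Beyond the 18q genes, 25 of 51 listed TGF-beta pathway genes had a transcript cluster with their symbol, and 13 of these lay below 0, with a median of −0.0049. By part, 10 of 12 regulators, 5 of 5 SMADs, 5 of 10 ligands, 4 of 13 targets and 1 of 11 receptors were measured. The median therefore says little about receptors and targets. LTBP1, which binds latent TGF-beta in the matrix, was lower at an unadjusted p under 0.05 (limma, log2 fold change −0.38) and its relative LTBP3 higher (0.35), while 0 passed an adjusted p of 0.05 and adjusted p values ran from 0.871 to 0.994. That made 2 of 25, beside 5.4% of all transcript clusters in either direction. SMAD3, the closest relative of SMAD2, had a log2 fold change of 0.10, SMAD6, the inhibitor that resembles SMAD7, of 0.25, and SMURF2, a ubiquitin ligase that SMAD7 recruits, of −0.48 with a standard error of 0.24.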

How the data were processed

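Total RNA of 6 SUM159 cultures was measured on Affymetrix Human Gene 2.0 ST arrays. The deposited log2 values are RMA signals, which the authors made in Partek Genomics Suite 6.6. This corrects the background, quantile-normalizes the arrays together, takes log2 and summarises probes into transcript clusters by median polish. A filtering step is named without details. No further normalization was applied. The median log2 signal per array was 4.33 to 4.42.

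Symbols came from the platform's probe table, which names 16098 transcript clusters and leaves 37519 unnamed here. Order and coordinates came from RefSeq on GRCh38.p14. The array annotation's build is not given in the sources used here. The brightest transcript cluster stood for a gene with more than 1. Promoter sequences were matched for 40 of the 45 genes.

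All transcript clusters were fitted together with limma 3.58.1 in R 4.3.3 (lmFit, eBayes, two-sided, Benjamini-Hochberg, threshold 0.05). The procedure was run on simulated data in which the noise of each transcript cluster was drawn independently. That run checked the recovered fold changes, and not the p values under variation that transcript clusters share. The 45 genes and the TGF-beta, role and marker lists were chosen with earlier results of these data known. Every gene of the set is named. Array values are given for the SMAD genes, the 2 nearest measured genes of the set on each side of each, the 8 lowest and 4 highest genes among those whose groups do not overlap, and genes on which a role group turns.

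Alternatives were an intensity trend in limma, an unpaired two-sided Student test (the methods' t-test), centred array medians, a block for the replicate number, cyclic loess, dim transcript clusters left out, symbols only, array weights, the mean over a symbol's transcript clusters, and each array left out. The first principal component as a covariate, genes above a signal of 7 alone, the set without SMAD2 and PSTPIP2, and array weights for the other chromosome 18 genes were added after the data were seen.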

Additional observations from a re-analysis of the deposited data

How the results depend on the processing

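The median log2 fold change of the 45 genes stayed between −0.31 and −0.16 whichever array was left out, the latter without control replicate 2, and was −0.13 with the first principal component as a covariate, against −0.25. SMAD2 ranged from −0.74 to −0.45 and SMAD4 from −0.65 to −0.47 over the arrays left out, and SMAD7 from −0.16 to 0.0017, with 0.0099 under array weights. The number of the 45 at an unadjusted p under 0.05, 13 in the fit reported, was 21 with array weights and 8 (without overexpression replicate 2) to 21 (without control replicate 1) with an array left out. The count for the TGF-beta list, 2, was 9 with array weights, 0 with the replicate block and 0 (without control replicate 3) to 6 (without control replicate 1) with an array left out. Transcript clusters called at an adjusted p under 0.05, 2 in all, numbered 25 with array weights, 5 with dim transcript clusters left out, 1 with cyclic loess, and 0 with the replicate block, the methods' t-test, the covariate, or any array left out. In the limma fit reported, 2895 had an unadjusted p under 0.05. The median of the other long arm genes was −0.13 instead of −0.026 without dim transcript clusters. The causes of these shifts were not tested, beyond the smaller number of transcript clusters or arrays that some settings use.

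Deviations from the group mean correlated at −0.30, 0.0016 and −0.020 between arrays with the same replicate number. Between arrays with different numbers they ranged from −0.27 to 0.29. The deviations within each group of 3 add up to 0, so these correlations cannot tell whether the numbers pair the samples. With the replicate block the median of the 45 genes was −0.25. Array weights put 7.91 on control replicate 3, against 0.366 to 1.02 on the other arrays, so that this setting rests largely on 1 control array. For 13 of the 45 genes, SMAD7 among them, leaving out 1 array turned the sign of the log2 fold change.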

Other observations

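Of the 45 genes, 40 had a RefSeq promoter sequence, with a median of 9.33 CpG per 100 bases. The median was likewise 9.33 over all genes with a mean log2 signal above 7, and 2.33 over genes below the median signal, so the set had the promoter CpG content of the brighter genes on the array.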
